A study of Mus musculus with 9 samples.

Results

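Car6, Cox6a2, Avil, Aqp9 and Angptl6 are mouse genes better known from salivary gland, muscle, sensory neurons and liver, and all were low in RANKL-treated RAW 264.7 cells and high when surface proteins of Propionibacterium freudenreichii MJ2 were added. These 5 genes were picked by symbol from the 23282 gene rows, with their high level under surface proteins already known, so that the difference between surface proteins and RANKL alone is given as a description and not as a test. Each of the 5 symbols had 1 row in every library. RAW 264.7 is an established mouse macrophage line that turns into osteoclast-like cells when it receives RANKL, the cytokine that starts osteoclast differentiation. RNA was sequenced from 9 libraries, 3 for each of 3 groups. The negative control received RANKL alone at 50 ng/mL. The surface protein group received RANKL at 50 ng/mL with surface proteins at 10 μg/mL. The third group received heat-killed MJ2 bacteria at 10000000 cells/mL, and whether RANKL went with them is not given in the labels of its libraries. All cells were at passage 30 and were treated for 4 days, and the labels give the strain as BALB/c and the tissue as Blood lymph. The groups come from a single transformed line, and nothing in the labels says that the 3 libraries of a group came from separate cultures, so the spread between them may be technical.

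Values are given as adjusted reads, that is 2 raised to the deposited log2 value, less 1. Each mRNA was read at its 3′ end, so that a value does not grow with the length of the transcript. The adjusted reads of a library summed to between 5930926 and 6503682. The values are normalized and not read counts. Eno1, a glycolytic enzyme gene that every cell uses, was listed at between 0 and 4.88 adjusted reads in all 9 libraries, so that a gene listed at 0 is given only as listed at 0 and not as absent. In replicate 2 of RANKL alone, replicate 1 of heat-killed MJ2 and replicate 3 of surface proteins, between 2454 and 3195 rows held values above 0 but under 0.5 of a read, which occurred in no other library, so that values such as 0.0981 there are not reads. In bulk RNA, fewer cells with a transcript and less of it per cell cannot be told apart. Libraries of a group correlated at r between 0.946 and 0.964. Osteoclast identity was checked on its markers: 7 of 9 tested osteoclast markers were lower with surface proteins and 3 of 9 with heat-killed MJ2 than with RANKL alone, while 5 of 9 tested macrophage markers were higher and Csf1r lower with surface proteins, and 4 of 9 higher with heat-killed MJ2 (limma, adjusted p under 0.05 and at least 2-fold). Over all genes tested, 10.2% were called higher and 7.32% lower with surface proteins, and 3.37% higher and 0.897% lower with heat-killed MJ2.

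The 5 genes have little in common in textbook biology. Car6 encodes carbonic anhydrase VI, the secreted member of a family of zinc enzymes that hydrate carbon dioxide, made by salivary glands, and an intracellular form of it that depends on the stress factor CHOP has been described in stressed cells. Cox6a2 encodes the heart and skeletal muscle isoform of cytochrome c oxidase subunit VIa, a part of the last complex of the respiratory chain, whose widespread isoform is Cox6a1. Avil encodes advillin, an actin-binding protein of the gelsolin and villin family found in sensory neurons and tuft cells. Aqp9 encodes an aquaglyceroporin, a channel for water, glycerol and other small solutes, known from liver and leukocytes. Angptl6 encodes a secreted angiopoietin-like protein known mainly from liver.

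Where the genes lie is given on GRCm38, the build also called mm10, by the GENCODE M21 annotation, as the files carry symbols only. Car6 is on chromosome 4 from 150187015 to 150201332 (minus strand), Cox6a2 on chromosome 7 from 128205435 to 128206387 (minus strand) and Avil on chromosome 10 from 127000709 to 127020994 (plus strand). Aqp9 and Angptl6 are both on chromosome 9, from 71110659 to 71168682 and from 20873808 to 20879727 (both minus strand). None of the 5 neighbours another.

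Of the 5 genes, 4 had a RefSeq promoter window (GRCm38.p6, 250 bases before to 50 after the annotated start), and Aqp9 had 2 such windows for its 2 starts. The 250 bases upstream are shown for the windows of Avil and of the downstream Aqp9 start, the only ones among these 5 windows that held the composite CHOP and ATF4 motif TGATGNAA, and the capitals mark that motif. Avil is shown for chr10:127000459-127000708 (plus strand) and Aqp9 for chr9:71162634-71162883 (minus strand).
Avil: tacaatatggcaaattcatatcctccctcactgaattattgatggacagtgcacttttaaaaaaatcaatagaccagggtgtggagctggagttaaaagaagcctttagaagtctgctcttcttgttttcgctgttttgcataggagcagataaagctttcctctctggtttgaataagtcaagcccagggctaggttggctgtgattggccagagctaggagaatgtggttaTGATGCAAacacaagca
Aqp9: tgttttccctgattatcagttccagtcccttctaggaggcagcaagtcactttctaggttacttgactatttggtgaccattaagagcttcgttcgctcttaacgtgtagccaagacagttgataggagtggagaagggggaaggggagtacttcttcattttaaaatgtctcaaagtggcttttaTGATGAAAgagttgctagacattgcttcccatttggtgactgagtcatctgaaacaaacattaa

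Counted from the start, the motif began at position -17 in Avil, as TGATGCAA, and at position -64 from the downstream start in Aqp9, as TGATGAAA. It was present, on either strand, in 3.97% of the 32851 promoter windows of the same length. The Aqp9 window also held the AP-1 motif TGAGTCA (the reverse complement of TGACTCA) at position -24, clear of the composite motif, and 5.20% of all windows held that motif. The C/EBP motif TTGCNNAA was found at position 32 of Avil and, on the opposite strand, at position -229 from the upstream start of Aqp9, and was in 10.8% of all windows. No window of the 5 genes held the cyclic AMP response element TGACGTCA (1.79% of all windows), the interferon response element GAAANNGAA (8.56%), the GAS element TTCNNNGAA (8.30%), the ETS motif GAGGAAG (13.6%), the TATA box TATAAA (13.6%) or the NF-κB motif (8.46%). The motif letters were spelled out after the sequences had been seen. A match is a description of letters in a window and not a binding site.

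Car6 showed the largest log2 difference of the 5 genes between surface proteins and RANKL alone. With RANKL alone its adjusted reads were 0.848, 7.66 and 0 in replicates 1, 2 and 3. With heat-killed MJ2 they were 17.4, 99.6 and 18.6, and with surface proteins 1180, 2431 and 1773. The groups did not overlap: the lowest surface protein library was 154-fold above the highest library with RANKL alone and 11.8-fold above the highest with heat-killed MJ2. Replicate 2 was the highest library in every group. On the deposited log2 scale the mean was 5.05 ± 1.39 (SD, n = 3) with heat-killed MJ2 and 10.75 ± 0.52 (SD, n = 3) with surface proteins. The log2 difference between surface proteins and RANKL alone was 9.42 (standard error 0.79), rank 2 of the 10874 genes tested in that comparison. With RANKL alone near 0, that value depends on the constant added before the logarithm, and it was 10.90 with a constant of 0.1. Car6, Cox6a2, Avil and Aqp9 met the 10 adjusted reads in 3 libraries needed for this fit only through the surface protein libraries. The ranks given are therefore a description.

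Cox6a2 was likewise low without bacterial material. Its adjusted reads were 5.53, 2.27 and 0 with RANKL alone, 39.9, 213 and 32.3 with heat-killed MJ2, and 691, 721 and 672 with surface proteins. The 3 groups stood apart, with the lowest surface protein library 122-fold above the highest with RANKL alone and 3.16-fold above the highest with heat-killed MJ2. The surface protein libraries lay within 1.07-fold of each other, while those with heat-killed MJ2 spread over 6.58-fold. The log2 difference between surface proteins and RANKL alone was 7.97 (standard error 0.64), rank 6 of the genes tested, and 9.30 with a constant of 0.1.

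Avil had a low but measurable level with RANKL alone. Its adjusted reads were 7.40, 13.1 and 7.89 with RANKL alone, 11.3, 39.6 and 19.6 with heat-killed MJ2, and 699, 1566 and 884 with surface proteins. The libraries with heat-killed MJ2 overlapped those with RANKL alone, and the surface protein libraries stood clear of both. The lowest of them was 17.6-fold above the highest library with heat-killed MJ2, the widest such gap of the 5 genes. The log2 difference between surface proteins and RANKL alone was 6.61 (standard error 0.35), rank 15 of the genes tested.

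Aqp9 was the least abundant of the 5 with surface proteins. With RANKL alone its adjusted reads were 0.849, 0.0981 and 0, all under 1 read. With heat-killed MJ2 they were 6.17, 60.0 and 8.80, and with surface proteins 69.5, 182 and 115. The groups did not overlap, but replicate 2 of heat-killed MJ2 came close to replicate 1 of surface proteins, at a ratio of 1.16. No fold over RANKL alone is given, since its libraries were at or near 0. The fitted log2 difference between surface proteins and RANKL alone, 6.50 (standard error 0.40), depends on the constant added before the logarithm and is no bound.

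Angptl6 had the highest level of the 5 with RANKL alone. Its adjusted reads were 43.0, 72.4 and 49.4 with RANKL alone, 69.6, 309.6 and 98.0 with heat-killed MJ2, and 997, 1017 and 1052 with surface proteins. Heat-killed MJ2 overlapped RANKL alone, since its replicate 1 lay below replicate 2 of the negative control. The surface protein libraries agreed within 1.06-fold, and their lowest value was 13.8-fold above the highest with RANKL alone. The log2 difference was 4.23 (standard error 0.21), rank 122 of the genes tested. In all 5 genes every surface protein library was above every library with RANKL alone, as the choice of these genes brought about. Of all genes tested, 24.7% showed the same separation, 10.2% were called higher and 7.32% lower with surface proteins (limma, adjusted p under 0.05 and at least 2-fold).

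**Figure D1:**
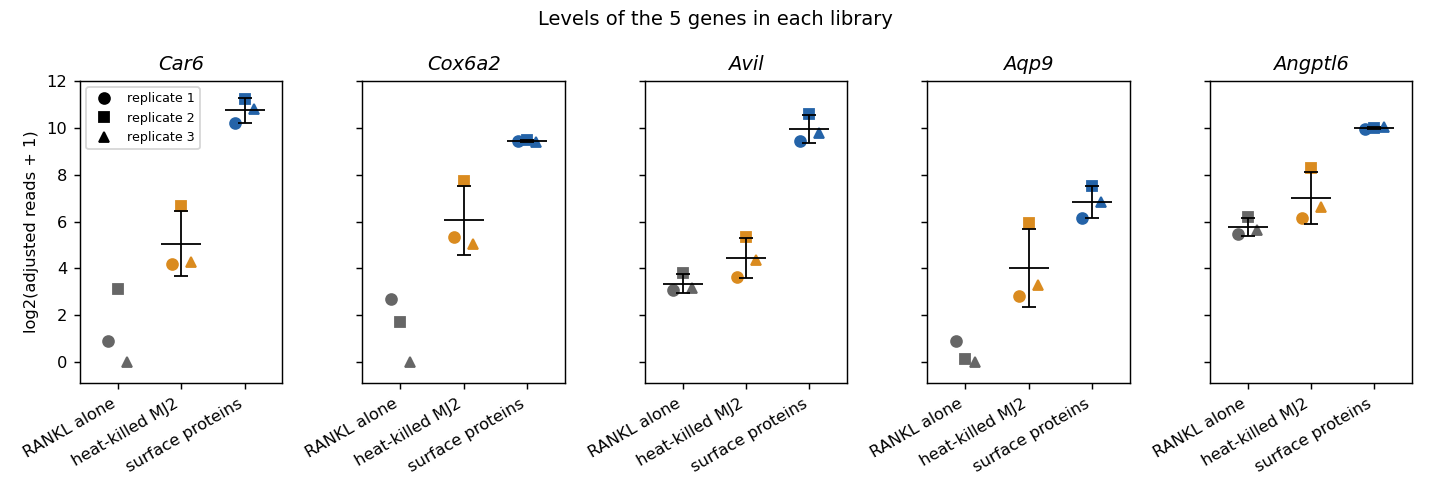
Level of each of the 5 genes as log2(adjusted reads + 1) in the 3 libraries of each group, with circles, squares and triangles for replicates 1, 2 and 3 and horizontal bars with whiskers for the mean ± SD (n = 3), left out where a library is listed at 0. Surface protein libraries are highest in every panel, and the square of replicate 2 is the highest point of the heat-killed MJ2 group in all 5.

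The spread between the surface protein libraries split the 5 genes into a tight pair and a loose trio. Cox6a2 and Angptl6 had coefficients of variation of 3.54% and 2.71% in adjusted reads. Car6, Avil and Aqp9 had 34.9%, 43.5% and 46.3%, and in all 3 of these the order was replicate 2, then 3, then 1. The difference in spread was not tested.

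Replicate 2 of heat-killed MJ2 stood apart from the other two libraries of its group in all 5 genes. It exceeded the mean of replicates 1 and 3 by 5.52-fold for Car6, 5.89-fold for Cox6a2, 2.57-fold for Avil, 8.01-fold for Aqp9 and 3.69-fold for Angptl6. Among 10871 genes whose mean over those 2 replicates was above 3 adjusted reads, the median ratio was 1.00 and 1.47% reached the 2.57-fold of Avil. The total of this library, 6228385 adjusted reads, was near that of the others. The log2 differences and linear shares of the 5 genes for heat-killed MJ2 are therefore given with and without it.

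Heat-killed MJ2 was compared with RANKL alone, a comparison that did not choose the genes, although its 3 control libraries took part in the choice. Car6, Cox6a2 and Avil also passed the filter on low values only through the heat-killed MJ2 libraries. The differences of the 5 genes are therefore a description, and no p or call is given for them. The log2 difference was 4.58 for Cox6a2 (standard error 0.93) and 3.73 without replicate 2 of heat-killed MJ2. For Car6 it was 3.72 (standard error 0.98) and 2.92 without that library.

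Avil and Angptl6 differed less. Their log2 differences were 1.10 (standard error 0.46) and 1.25 (standard error 0.56), and 0.65 and 0.61 without replicate 2. Aqp9 had a log2 difference of 3.68, and 2.73 without replicate 2, with no standard error, because fewer than 3 of its 6 libraries reached 10 adjusted reads. In Car6, Cox6a2 and Aqp9 every heat-killed MJ2 library was above every library with RANKL alone, a separation seen in 15.4% of the 10814 genes tested, while Avil and Angptl6 overlapped. Of the genes tested, 3.37% were called higher and 0.897% lower with heat-killed MJ2 by limma.

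Surface proteins gave higher values than heat-killed MJ2 in all 5 genes, and no library of the first group overlapped the second, which held for 22.2% of the 10916 genes tested. The surface protein libraries took part in the choice of the genes, so no p is given here. The log2 differences between surface proteins and heat-killed MJ2 were 5.70 for Car6 (standard error 0.69) and 5.51 for Avil (standard error 0.50). They were 3.39 for Cox6a2 (standard error 0.69), 2.98 for Angptl6 (standard error 0.53) and 2.81 for Aqp9 (standard error 0.84). Without replicate 2 of heat-killed MJ2 they were 6.50 for Car6, 5.96 for Avil, 4.24 for Cox6a2, 3.61 for Angptl6 and 3.77 for Aqp9. The doses were 10 μg/mL of extracted protein and 10000000 heat-killed cells/mL, which are not matched.

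In linear terms, the mean level with heat-killed MJ2 was 2.52% of that with surface proteins for Car6 and 2.24% for Avil. It was 13.7% for Cox6a2, 15.6% for Angptl6 and 20.5% for Aqp9. Without replicate 2 of heat-killed MJ2 the shares were 1.00% for Car6 and 1.47% for Avil, against 5.20% for Cox6a2, 6.14% for Aqp9 and 8.20% for Angptl6. Car6 and Avil thus had the lowest shares both with and without that library.

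**Figure D2:**
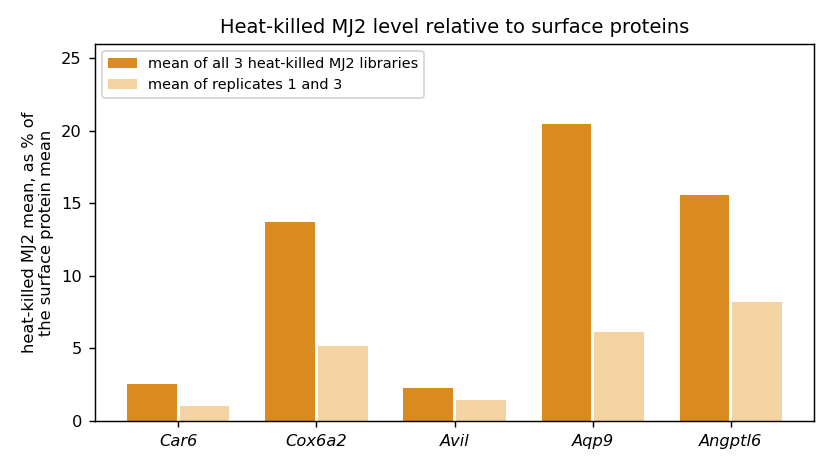
Mean adjusted reads with heat-killed MJ2 as a percentage of the mean with surface proteins for each of the 5 genes, with all 3 heat-killed MJ2 libraries (dark bars) and with replicates 1 and 3 only (light bars). The bars of Car6 and Avil are at 2.52% and 2.24% with all libraries, below those of the other genes.

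By GENCODE, genes on the opposite strand cover the 3′ ends of 3 members, the part that these libraries read. The sources used here do not state whether reads were counted by strand. Reads of such partners cannot then be told apart. Cox6a2 lies wholly inside Itgad, which encodes the integrin αD chain, by GENCODE (953 bases), while RefSeq gives an overlap of 70 bases. Itgad had 0, 0.0875 and 0 adjusted reads with RANKL alone, 0.0260, 7.70 and 3.90 with heat-killed MJ2, and 70.6, 46.2 and 74.1 with surface proteins. Its values thus stood in the same order of groups as those of Cox6a2. No fold or p is given for Itgad, since it was at or near 0 with RANKL alone and passed the filter only through the surface protein libraries.

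The last 500 bases of Angptl6 overlap Shfl, which encodes an interferon-stimulated inhibitor of ribosomal frameshifting and is listed under the older symbol A230050P20Rik. Shfl had 272, 299.9 and 275 adjusted reads with RANKL alone, 240.5, 530.2 and 288 with heat-killed MJ2, and 1090, 1063 and 1143 with surface proteins. It was highest in replicate 2 of heat-killed MJ2 within that group, as Angptl6 was. The log2 difference of Shfl between surface proteins and RANKL alone was 1.96 (standard error 0.13, adjusted p = 0.00045 by limma), against 4.23 for Angptl6. Across the 9 libraries the log2 values of Angptl6 and Shfl correlated at r = 0.983, those of Cox6a2 and Itgad at 0.91 and those of Avil and Tsfm at 0.023, as a description over libraries that share their groups.

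Avil overlaps Tsfm, which encodes a mitochondrial translation elongation factor, over 9423 bases by GENCODE, while RefSeq places Tsfm 1337 bases beyond Avil. Tsfm ranged from 154 to 247 adjusted reads over all 9 libraries, with a log2 difference of -0.07 between surface proteins and RANKL alone (standard error 0.16, adjusted p = 0.78 by limma). By 3′ reads its level was above that of Avil in every library without surface proteins and below it in every library with them. Ctdsp2, a phosphatase gene that ends 89 bases before the start of Avil on the same strand, had a log2 difference of -0.12 in that comparison (standard error 0.14, adjusted p = 0.57 by limma).

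**Figure D3:**
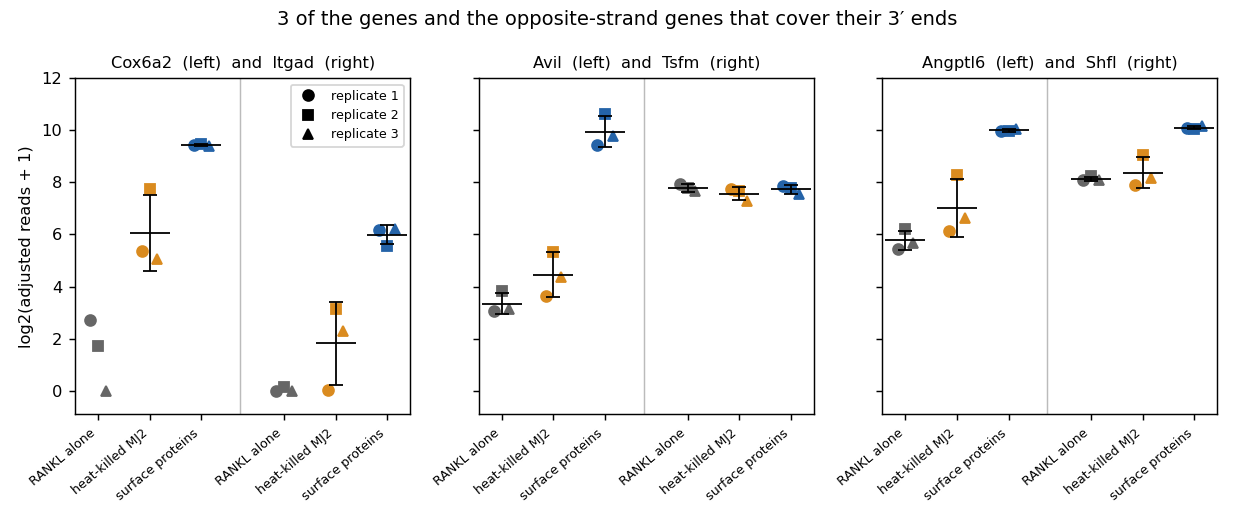
Level as log2(adjusted reads + 1) of Cox6a2, Avil and Angptl6 (left of each panel) and of the opposite-strand genes Itgad, Tsfm and Shfl that cover their 3′ ends by GENCODE (right), by library and group, with the mean ± SD (n = 3) except where a library is listed at 0. Itgad and Shfl are highest with surface proteins, as the members are, while Tsfm stays between 154 and 247 adjusted reads.

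Other annotated neighbours gave no such pattern. No annotated gene overlaps Car6, and the antisense transcript Gm32511, which overlaps Aqp9 away from its 3′ end, was listed at 0 in all 9 libraries. The nearest neighbours tested, Rere beside Car6, Armc5 and 9130023H24Rik beside Cox6a2, Atp23 beside Avil, Adam10 beside Aqp9, and Ppan and Eif3g beside Angptl6, had log2 differences between -0.99 and 0.52 between surface proteins and RANKL alone, and none was called.

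The relatives of the 5 genes were examined to see whether whole families moved. Of 15 other carbonic anhydrase genes, 6 were tested, of which 2 were called higher and 1 lower with surface proteins, against 10.2% and 7.32% of all genes tested (median log2 difference 0.39, against -0.01 over all genes tested). Car2, the abundant cytosolic enzyme that osteoclasts use to make acid, fell with surface proteins, from a range of 4005 to 6788 adjusted reads to one of 900.4 to 1369, a log2 difference of -2.05 (standard error 0.27, adjusted p = 0.0039 by limma). Its difference with heat-killed MJ2 was 0.13 (standard error 0.27, adjusted p = 0.82 by limma). Car13, another cytosolic enzyme, was called higher with both, by 2.40 with surface proteins (adjusted p = 0.012 by limma) and by 2.04 with heat-killed MJ2 (adjusted p = 0.046 by limma). The mitochondrial Car5b was called higher with surface proteins, by 1.01 (adjusted p = 0.017 by limma). Car4, a membrane-bound family member, had at most 2.97 adjusted reads in any library.

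Among 17 other cytochrome c oxidase subunit genes, 12 were tested and 1 was called lower with surface proteins, where 7.32% of all genes tested were called lower. An unadjusted p under 0.05 was found for 9 of the 12, against 42.3% of all genes tested, and their median log2 difference was -0.63, against -0.01. The called gene was Cox7a1, the muscle isoform of subunit VIIa, at 28.0 to 65.3 adjusted reads with RANKL alone and 3.88 to 15.5 with surface proteins (log2 difference -1.94, standard error 0.54, adjusted p = 0.041 by limma). Cox6a1, the widespread counterpart of Cox6a2, had 2493 to 3101 adjusted reads with RANKL alone and 1765 to 1924 with surface proteins. Its log2 difference of -0.58 (standard error 0.14, adjusted p = 0.029 by limma) was below 2-fold. With surface proteins, 3′ reads of Cox6a2 thus stood beside a larger number from Cox6a1. No subunit was called by limma with heat-killed MJ2, where 1 of the 12 had an unadjusted p under 0.05, against 22.6% of all genes tested, and their median log2 difference was -0.19.

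In the gelsolin and villin family, 5 of 7 other genes were tested and 1 was called lower with surface proteins, against 7.32% of all genes tested (median log2 difference -0.24, against -0.01). Gsn, the actin-severing gelsolin, had 2942 to 4816 adjusted reads with RANKL alone and 842 to 1219 with surface proteins, a log2 difference of -1.79 (standard error 0.25, adjusted p = 0.0043 by limma). Vil1, the intestinal villin closest to Avil, stayed between 2.84 and 14.1 adjusted reads in all libraries. No family member was called by limma with heat-killed MJ2, where 3.37% of all genes tested were called higher and 0.897% lower. Gsn alone of the 5 had an unadjusted p under 0.05, against 22.6% of all genes tested. Its log2 difference was -0.99 (standard error 0.20, adjusted p = 0.045 by limma), just short of 2-fold.

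Of 11 other aquaporin genes none was tested with surface proteins, since none had 10 adjusted reads in 3 of the 6 libraries. Of the other aquaglyceroporins, Aqp3 was listed at 0 in all libraries and Aqp7 at 10.8 adjusted reads or fewer. Among 9 other angiopoietin-like and angiopoietin genes examined, 7 had a row and 3 were tested with surface proteins, of which 2 were called lower, against 7.32% of all genes tested (median log2 difference -1.21, against -0.01). Angptl2 had 248 to 377 adjusted reads with RANKL alone, 135 to 190 with heat-killed MJ2 and 48.4 to 117 with surface proteins (log2 difference between surface proteins and RANKL alone -2.12, standard error 0.35, adjusted p = 0.0079 by limma). Angpt2, an antagonist of the TIE2 receptor, was lower with both, by a log2 difference of -1.21 with surface proteins (adjusted p = 0.014 by limma) and -1.09 with heat-killed MJ2 (adjusted p = 0.036 by limma).

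**Figure D4:**
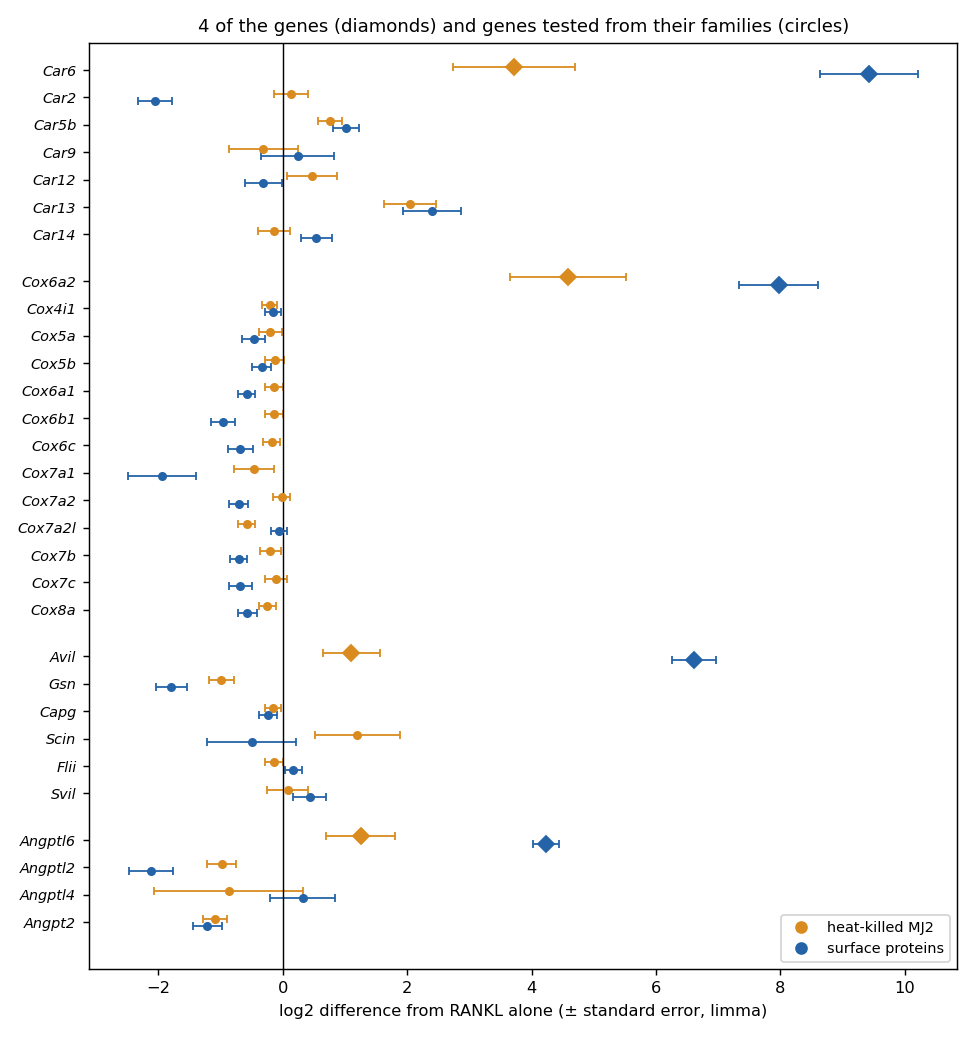
Log2 difference from RANKL alone, with its standard error from limma, of Car6, Cox6a2, Avil and Angptl6 (diamonds) and of the family members tested and described here (circles), for heat-killed MJ2 (orange) and surface proteins (blue). The 4 diamonds for surface proteins lie between 4.23 and 9.42, while the circles lie between -2.12 and 2.40.

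Since Car6 is known as a CHOP-dependent stress gene in other cells, a list of 10 ATF4 and CHOP stress genes was described beside the 5 genes. The list was chosen with earlier results of these data known, so its counts and p-values are a description and no independent support. ATF4 and CHOP are transcription factors made when translation is slowed by cell stress. Of the 10, 9 were called higher with surface proteins and none lower, with a median log2 difference of 2.65, against 10.2% called higher over all genes tested. Ddit3, which encodes CHOP, had 371, 620 and 304.5 adjusted reads with RANKL alone, 710, 1411 and 643 with heat-killed MJ2, and 5975, 6746 and 6921 with surface proteins. Its surface protein libraries were above all others, with a log2 difference of 3.98 from RANKL alone (standard error 0.28, adjusted p = 0.00052 by limma).

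Trib3, a pseudokinase gene that CHOP induces, rose from 2.72, 70.2 and 4.93 adjusted reads to 1539, 1809 and 1574 with surface proteins (log2 difference 7.14, standard error 1.06). No p is given for Trib3, which passed the filter on low values only through the surface protein libraries. Atf3, Chac1 and Sesn2 also reached 10 adjusted reads in fewer than 3 libraries with RANKL alone. All of these are counted among the 9 called genes. Hspa5, the chaperone of the endoplasmic reticulum, rose by 1.98 (standard error 0.21, adjusted p = 0.0019 by limma). Xbp1 was the only one of the 10 that was not called. With heat-killed MJ2, Asns alone was called, by 1.35 (standard error 0.24, adjusted p = 0.03 by limma), where 3.37% of all genes tested were called higher. An unadjusted p under 0.05 by limma was found for 6 of the 10, against 22.6% of all genes tested. The median of the list was 0.94, against -0.004 over all genes tested.

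Replicate 2 was the highest library for 8 of these 10 genes with RANKL alone, for 7 with heat-killed MJ2 and for 5 with surface proteins, against 34.1%, 37.8% and 33.9% of all genes tested. In heat-killed MJ2 its excess over the mean of replicates 1 and 3 was 3.81-fold for Trib3, 3.18-fold for Atf3 and 2.09-fold for Ddit3, in the library where all 5 members were also highest. For the other 7 genes of the list that ratio lay between 0.974 and 1.72. With surface proteins the list kept 9 called genes without replicate 2 of RANKL alone. It had 8, with Chac1 lost, without replicate 1 or 3 of RANKL alone, without replicate 1 or 3 of surface proteins, without a filter or with the replicate block, and 7 without replicate 2 of surface proteins, where Atf3 was lost too. With 10 adjusted reads required in all 6 libraries, 6 were tested and 5 called. With heat-killed MJ2 the call of Asns was lost without a filter and when any 1 library other than replicate 2 of RANKL alone was left out. Between 3 and 6 of the 10 genes then had an unadjusted p under 0.05 by limma, against 6 in the main fit. Without replicate 2 of RANKL alone 3 were called (Asns, Atf3 and Trib3), and with the replicate block 2 (Asns and Ddit3). The part of stress genes in the values of the 5 members was not tested.

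**Figure D5:**
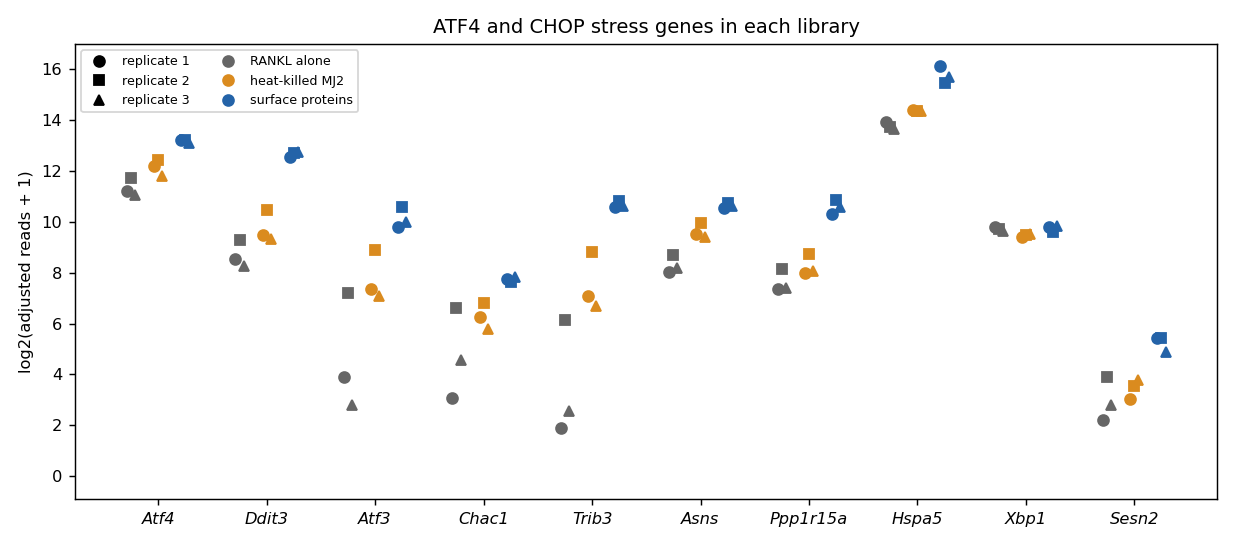
Level of the 10 ATF4 and CHOP stress genes as log2(adjusted reads + 1) in each library, by group (colour) and replicate (symbol). Surface protein libraries lie above the others for 9 of the 10 genes, and the square of replicate 2 is the highest of the RANKL-alone libraries for 8 of them.

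Markers of the tissues for which the 5 genes are known were summed in each library. Of 10 salivary gland markers, 8 were listed at 0 in all 9 libraries, and the sum of the list was at most 9.61 adjusted reads in any library. Of 9 hepatocyte markers with a row, 7 were listed at 0 in all libraries, Alb and Ttr among them, and the sum was at most 3.85. Tuft cell markers summed to at most 18.2 and sensory neuron markers to at most 33.0 adjusted reads, with Pou2f3, Dclk1, Scn10a and Calca listed at 0 throughout. Uchl1, a sensory neuron marker, had 4.87 to 19.65 adjusted reads over the 9 libraries. Striated muscle markers summed to 154 to 162 adjusted reads with RANKL alone, 106 to 170 with heat-killed MJ2 and 142 to 196 with surface proteins, nearly all of it Ryr1 and Ttn. Ryr1, a calcium release channel, had 70.6 to 153.6 adjusted reads over the 9 libraries. The defining sarcomere genes Myh1, Myh2, Myh6 and Actn2 were listed at 0 in all libraries. Only 3 genes of these 5 lists passed the filter in either comparison with RANKL alone, and none was called by limma or had an unadjusted p under 0.05. For the leukocytes in which Aqp9 is known, 10 neutrophil markers with a row were described. No call is given for S100a8 against RANKL alone, where it was at or near 0, and Cxcr2, the other marker that passed the filter, was not called by limma. The list summed to 9.95 to 14.97 adjusted reads with RANKL alone, 1941 to 2095 with heat-killed MJ2 and 131 to 231 with surface proteins, mostly from S100a8 in the last 2 groups, and S100a8 was higher with heat-killed MJ2 than with surface proteins, the opposite order to Aqp9. Mpo, Elane, Ltf and Ngp were listed at 0 in all libraries, and the part of these markers in the values of Aqp9 was not tested.

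Genes with the pattern most like each member were taken by Pearson's r of the log2 values over the 9 libraries among 11192 genes, as a description, since the libraries share their groups. For Car6 they were Nfkbiz, which encodes a nuclear inhibitor of the NF-κB family (r = 0.997), Slc25a24, a mitochondrial carrier (0.996), and Wars, the tryptophan transfer RNA ligase (0.995). For Avil they were Eif1, a translation initiation factor (0.994), Ppp1r15a, the stress-induced phosphatase subunit GADD34 (0.992), and Scpep1 (0.991). For Angptl6 they were Lonp1, the mitochondrial protease (0.993), Ghitm (0.992) and Zyg11b (0.992). For Cox6a2 they were Rab32 (0.986), Atp8b4 (0.986) and Rbpj (0.985), and for Aqp9 Tm9sf4 (0.988), Cox6a2 (0.981) and Plxna1 (0.981).

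Such values were common: each member had between 494 and 627 genes at r above 0.9. Among themselves the 5 members correlated at r between 0.874 (Cox6a2 with Avil) and 0.981 (Cox6a2 with Aqp9). Car6 followed Angptl6 at 0.978 and Avil followed Angptl6 at 0.974.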

How the data were processed

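RNA libraries of RAW 264.7 cells, 3 per group, were made with a QuantSeq 3′ kit. Per the labels' processing notes, Bowtie2, bedtools and the mm10 build were used, and by the study's methods values were quantile normalized between samples. The annotation, the counting by strand and the handling of shared reads are not given in the sources used here. The authors deposited 1 log2 value per gene row and library, with 3 decimals, and 2 raised to it, less 1, was taken as adjusted reads. Groups and replicate numbers came from sample titles. Deposited log2 values were compared with limma 3.58.1 (R 4.3.3) in the 6 libraries of each comparison, after a filter of 10 adjusted reads in no fewer than 3 libraries. P-values were Benjamini-Hochberg adjusted, and a call needed an adjusted p under 0.05 with a fold of 2. The code was tested on simulated data. The members and the gene lists were chosen with earlier results of these data known. Apart from the members, genes were named if called or nearest paralog in a family list, neighbours, the 3 most correlated genes, or leading markers. Alternatives were other scalings, filters, constants, fits, a replicate block and leaving out each library, for which the genes tested were kept. Those for the stress gene list were chosen after seeing the data. 1 family gene is not reported here.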

Additional observations from a re-analysis of the deposited data

How the results depend on the processing

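Of all genes tested, 461 were called between heat-killed MJ2 and RANKL alone, 267 without a filter on low values and between 189 and 334 when a library was left out. Leaving out replicate 3 of RANKL alone (292) or replicate 1, 2 or 3 of heat-killed MJ2 (189, 261 and 206) moved this count by over 1.5 times. Between surface proteins and heat-killed MJ2 the count was 1098 and ran from 342 to 1167, with replicates 1 and 3 of heat-killed MJ2 and replicates 2 and 3 of surface proteins each moving it by over 1.5 times (342, 424, 612 and 644 without them). Between surface proteins and RANKL alone it was 1901 and ran from 1490 to 1876. The cause was not tested. With the replicate block the counts were 289, 980 and 1813. Same-numbered libraries deviated from their group means with r between 0.041 and 0.177 over 9483 genes, above 0.1 in 3 of 9 pairs. Differently numbered libraries had r between -0.131 and 0.074, and 7 of 9 libraries correlated best with their own number in both other groups. The main fit did not take the numbers as pairs, and a shared effect of the replicate number was not tested. No log2 difference of the 5 genes changed sign under any of these alternatives. For surface proteins against either other group this is no support, since the genes were chosen as high and their libraries did not overlap. The libraries of Car6, Cox6a2 and Aqp9 did not overlap between heat-killed MJ2 and RANKL alone either. With a constant of 0.1 before the logarithm those between surface proteins and RANKL alone rose to 10.90 for Car6, 9.30 for Cox6a2 and 8.74 for Aqp9, and that of Aqp9 between heat-killed MJ2 and RANKL alone to 5.82. With a constant of 2 the difference of Aqp9 between surface proteins and RANKL alone was 5.66. Requiring 10 adjusted reads in all 6 libraries left Angptl6 as the only member tested against RANKL alone with heat-killed MJ2.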

Other observations

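Of the 10 neutrophil markers with a row, 2 passed the filter on low values against RANKL alone, S100a8 and Cxcr2. S100a8, a calcium-binding protein of myeloid cells, had 1899, 2056 and 1906 adjusted reads with heat-killed MJ2 and 198, 209 and 113 with surface proteins, against at most 0.11 with RANKL alone. It was therefore higher with heat-killed MJ2 than with surface proteins (limma log2 difference -3.54 for surface proteins less heat-killed MJ2, standard error 0.25, adjusted p = 0.0036), the opposite order to the 5 genes of the report. Its usual partner S100a9 had at most 1.01 adjusted read in any library. Cxcr2, a chemokine receptor, had 14.97, 9.78 and 10.9 adjusted reads with RANKL alone, 33.7, 16.4 and 30.5 with heat-killed MJ2, and 12.7, 22.1 and 16.5 with surface proteins. Its heat-killed MJ2 libraries lay above all with RANKL alone, but it was not called (log2 difference 1.07, standard error 0.31, adjusted p = 0.1 by limma). Mmp8, the neutrophil collagenase, was not tested, with at most 0.0526 adjusted reads with RANKL alone, 7.15, 23.4 and 13.8 with heat-killed MJ2, and 4.89, 0 and 0.0659 with surface proteins, where heat-killed MJ2 stood above both other groups.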
